A study of Mus musculus with 37 samples.

Results

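Potassium channel genes were examined for chromatin accessibility in interneurons of the mouse nucleus accumbens. They comprised all protein-coding genes of the mm10 RefSeq annotation whose symbol begins with Kcn, apart from the genes most closely tied to fast spiking (Kcnc1 to Kcnc4, Kcns3, Kcna1 and Kcna2). Of 87 such genes, 84 held at least 1 measured region in the gene body or the 2 kb on either side, out of 17678 protein-coding genes that did so. Kcne2, Kcnj13 and Kcnrg held none. The 84 genes fall into 24 voltage-gated pore subunits, 9 electrically silent modifier subunits, 15 auxiliary subunits, 14 inward rectifiers, 14 tandem-pore leak channels and 8 calcium- or sodium-activated channels.

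The tissue came from adult mice aged P60 to P210, both accumbens of a single mouse per sample, and ATAC-seq, in which the Tn5 transposase inserts adapters into open DNA, was run on nuclei sorted by the INTACT method. All mice were compound heterozygotes that carried Rosa-LSL-Sun1-GFP, a Cre-dependent green fluorescent protein of the nuclear envelope, and either Pvalb-IRES-Cre (parvalbumin, PV) or Sst-IRES-Cre (somatostatin, SST). Nuclei bound by an anti-GFP antibody form the IP libraries, and the supernatant of that step forms the unbound fraction (UF), which holds the other nuclei of the tissue and any tagged nuclei not bound. Tagging follows the activity of Cre under Pvalb or Sst at any time in life, so the tagged nuclei are those of cells with a history of that promoter. PV mice received 3 mg/kg amphetamine (AMPH) or saline i.p., either once, with nuclei isolated 60 min later (4 libraries of each fraction and treatment), or on 6 days, with nuclei isolated 24 h after the final dose. The 24 h set has 4 IP and 4 UF libraries for AMPH, and for saline 3 IP and 4 UF libraries. SST nuclei, from saline mice only and with no time given, gave 3 IP and 3 UF libraries. All buffers held sodium butyrate, which blocks histone deacetylases.

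Potassium channels let potassium leave or enter a neuron and so set its resting potential, shape its action potential and limit how fast it can fire. Voltage-gated pore subunits assemble as tetramers, into which silent modifier subunits can mix, and cytoplasmic or membrane-bound auxiliary subunits tune their gating. Inward rectifiers and tandem-pore channels hold the membrane near rest, G-protein-gated rectifiers pass on the action of inhibitory receptors, and calcium-activated channels follow spikes. Fast-spiking PV cells and the slower, often tonically active SST cells of the striatum are known to differ in these currents, while spiny projection neurons, the main cells of the accumbens, rely on strong inward rectification at rest.

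Raw counts per 200 bp region were summed per gene, and CPM, the counts divided by the library total scaled by TMM, were computed within a table. Libraries held 1386842 to 15120963 counts in PV at 60 min, 6573702 to 11802288 in SST, and 650666 to 9655838 in PV at 24 h. The 3 tables hold different regions and were scaled separately, so levels were compared only within a table. Pvalb was higher in PV IP than in UF by 3.11 ± 0.21 on the log2 scale (SE), and Sst was higher in SST IP than in UF by 3.45 ± 0.25. Genes marking oligodendrocytes were lower in both IP fractions (9 of 10 in PV and 10 of 10 in SST). Genes of endothelial and mural cells were higher in PV IP (6 of 9), with summed levels of 228 to 366 CPM in PV IP and 131 to 171 CPM in PV UF, but 135 to 144 CPM in SST IP and 119 to 129 CPM in SST UF. Spiny projection neuron genes summed to 938 to 1036 CPM in PV IP, 1502 to 1656 CPM in PV UF, 986 to 1020 CPM in SST IP and 937 to 970 CPM in SST UF. In such bulk nuclei, a smaller share of a cell type and lower accessibility within it cannot be told apart. Nothing in the labels excludes that an IP and a UF library share a mouse, and p-values measure the spread between these libraries.

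The start sites of 6 genes are shown because a measured region over the promoter itself moved with the gene. Each sequence is the 250 bases upstream of a RefSeq start site (GRCm38.p6, the assembly of mm10), written 5′ to 3′ on the gene's strand, with the bases covered by the measured region in capitals. The first 5 belong to PV nuclei at 60 min and the last to SST nuclei.
Kcnmb2: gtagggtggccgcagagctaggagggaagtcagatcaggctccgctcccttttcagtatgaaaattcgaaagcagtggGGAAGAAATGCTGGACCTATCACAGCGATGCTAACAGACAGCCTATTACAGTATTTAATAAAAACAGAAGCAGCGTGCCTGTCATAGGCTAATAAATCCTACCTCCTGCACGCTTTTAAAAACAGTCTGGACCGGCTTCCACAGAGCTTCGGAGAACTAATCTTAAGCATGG
Kcng4: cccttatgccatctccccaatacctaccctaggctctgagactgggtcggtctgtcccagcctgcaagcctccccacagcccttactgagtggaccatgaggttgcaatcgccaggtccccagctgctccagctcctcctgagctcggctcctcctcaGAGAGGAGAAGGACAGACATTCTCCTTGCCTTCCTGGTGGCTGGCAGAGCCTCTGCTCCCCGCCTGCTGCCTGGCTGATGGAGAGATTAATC
Kcnj9: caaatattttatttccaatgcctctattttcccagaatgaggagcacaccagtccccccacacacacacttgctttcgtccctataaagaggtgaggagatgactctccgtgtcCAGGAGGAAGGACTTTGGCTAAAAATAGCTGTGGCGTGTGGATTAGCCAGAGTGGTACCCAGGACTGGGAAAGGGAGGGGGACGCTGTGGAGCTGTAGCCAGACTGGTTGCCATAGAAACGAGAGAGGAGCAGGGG
Kcnj3: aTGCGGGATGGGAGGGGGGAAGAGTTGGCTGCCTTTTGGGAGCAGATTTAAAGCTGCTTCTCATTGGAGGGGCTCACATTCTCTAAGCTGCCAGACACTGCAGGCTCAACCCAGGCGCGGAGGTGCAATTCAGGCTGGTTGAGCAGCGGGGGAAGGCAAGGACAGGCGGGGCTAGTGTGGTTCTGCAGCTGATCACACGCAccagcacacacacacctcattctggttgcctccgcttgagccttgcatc
Kcnip3: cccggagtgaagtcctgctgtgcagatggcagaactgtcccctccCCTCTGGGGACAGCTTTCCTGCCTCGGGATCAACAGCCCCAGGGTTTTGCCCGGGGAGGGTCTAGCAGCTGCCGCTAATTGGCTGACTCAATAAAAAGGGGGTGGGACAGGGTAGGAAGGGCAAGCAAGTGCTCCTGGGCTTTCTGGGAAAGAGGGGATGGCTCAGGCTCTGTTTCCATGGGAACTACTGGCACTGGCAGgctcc
Kcnj10: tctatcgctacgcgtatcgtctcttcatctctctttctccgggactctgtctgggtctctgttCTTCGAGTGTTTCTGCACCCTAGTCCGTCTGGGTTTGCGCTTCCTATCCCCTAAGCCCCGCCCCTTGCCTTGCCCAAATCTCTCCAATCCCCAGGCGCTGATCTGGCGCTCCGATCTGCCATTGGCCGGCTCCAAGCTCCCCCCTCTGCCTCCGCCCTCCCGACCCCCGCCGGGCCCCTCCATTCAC
The Kcnmb2 promoter lies at chr3:31902453-31902702 on the plus strand, and its region averaged 11.3 ± 4.77 CPM in PV IP and 2.86 ± 0.83 CPM in PV UF (SD, n = 4 each). The Kcng4 promoter lies at chr8:119635681-119635930 on the minus strand, with 6.95 ± 2.35 CPM in PV IP and 1.08 ± 0.44 CPM in PV UF. Both regions were higher in every IP library than in any UF library. The Kcnj9 promoter (chr1:172329323-172329572, minus strand) had 46.1 ± 14.0 CPM in PV IP and 26.8 ± 4.99 CPM in PV UF, and the Kcnj3 promoter (chr2:55435720-55435969, plus strand) had 20.0 ± 1.84 CPM in PV IP and 10.1 ± 1.61 CPM in PV UF. The Kcnip3 promoter (chr2:127522095-127522344, minus strand) moved the other way, with 14.2 ± 3.74 CPM in PV IP and 31.0 ± 1.70 CPM in PV UF. In SST nuclei the Kcnj10 promoter (chr1:172340960-172341209, plus strand) had 7.63 ± 0.56 CPM in the IP libraries, against 21.6 ± 4.58 CPM in the UF libraries (SD, n = 3 each).

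RefSeq promoters were matched for 61 of the genes, 81 promoters in all, and searched on both strands for 3 motifs. The AP-1 motif TGANTCA, bound by Fos and Jun factors, was present in 4 of the 81 (4.94%), beside 6.75% of all 32851 promoters. The MEF2 motif, CTA and TAG with 4 bases of any kind between them, was present in 2 of the 81 (2.47%), beside 3.20% of all. The homeodomain motif TAATTA was present in 0 of the 81, beside 4.84% of all. Among the sequences shown, Kcnip3 holds an AP-1 match that begins 122 bases before its start site and Kcnj9 a MEF2 match 118 bases before its own. A match is a match of letters and not a bound site.

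In PV nuclei of saline mice at 60 min, potassium channel genes differed between IP and UF in both directions. Of the 82 genes tested, 21 were higher and 22 lower in IP at an adjusted p under 0.05 (edgeR quasi-likelihood test, Benjamini-Hochberg over all genes), a share of 52.4%, where 25% of all 16957 genes passed. The genes were also larger targets: the median gene had 9 regions, against 4 over all genes, and a log2 CPM of 5.76, against 5.33. The standard errors were alike, with a median of 0.17 in both sets. The median log2 fold change was 0.03 for the channel genes and -0.01 for all genes. By role, auxiliary subunits were more often called higher than lower (6 higher and 2 lower of 15), modifiers more often lower (2 higher and 5 lower of 8), and voltage-gated pore subunits too (1 higher and 7 lower of 24). Inward rectifiers (6 higher and 4 lower of 14), tandem-pore channels (4 higher and 3 lower of 13) and calcium- or sodium-activated channels (2 higher and 1 lower of 8) were mixed. In 17 genes every IP library was above every UF library and in 23 every one was below, together 40 of 83, where 26.8% of all genes showed such a separation.

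**Figure D1:**
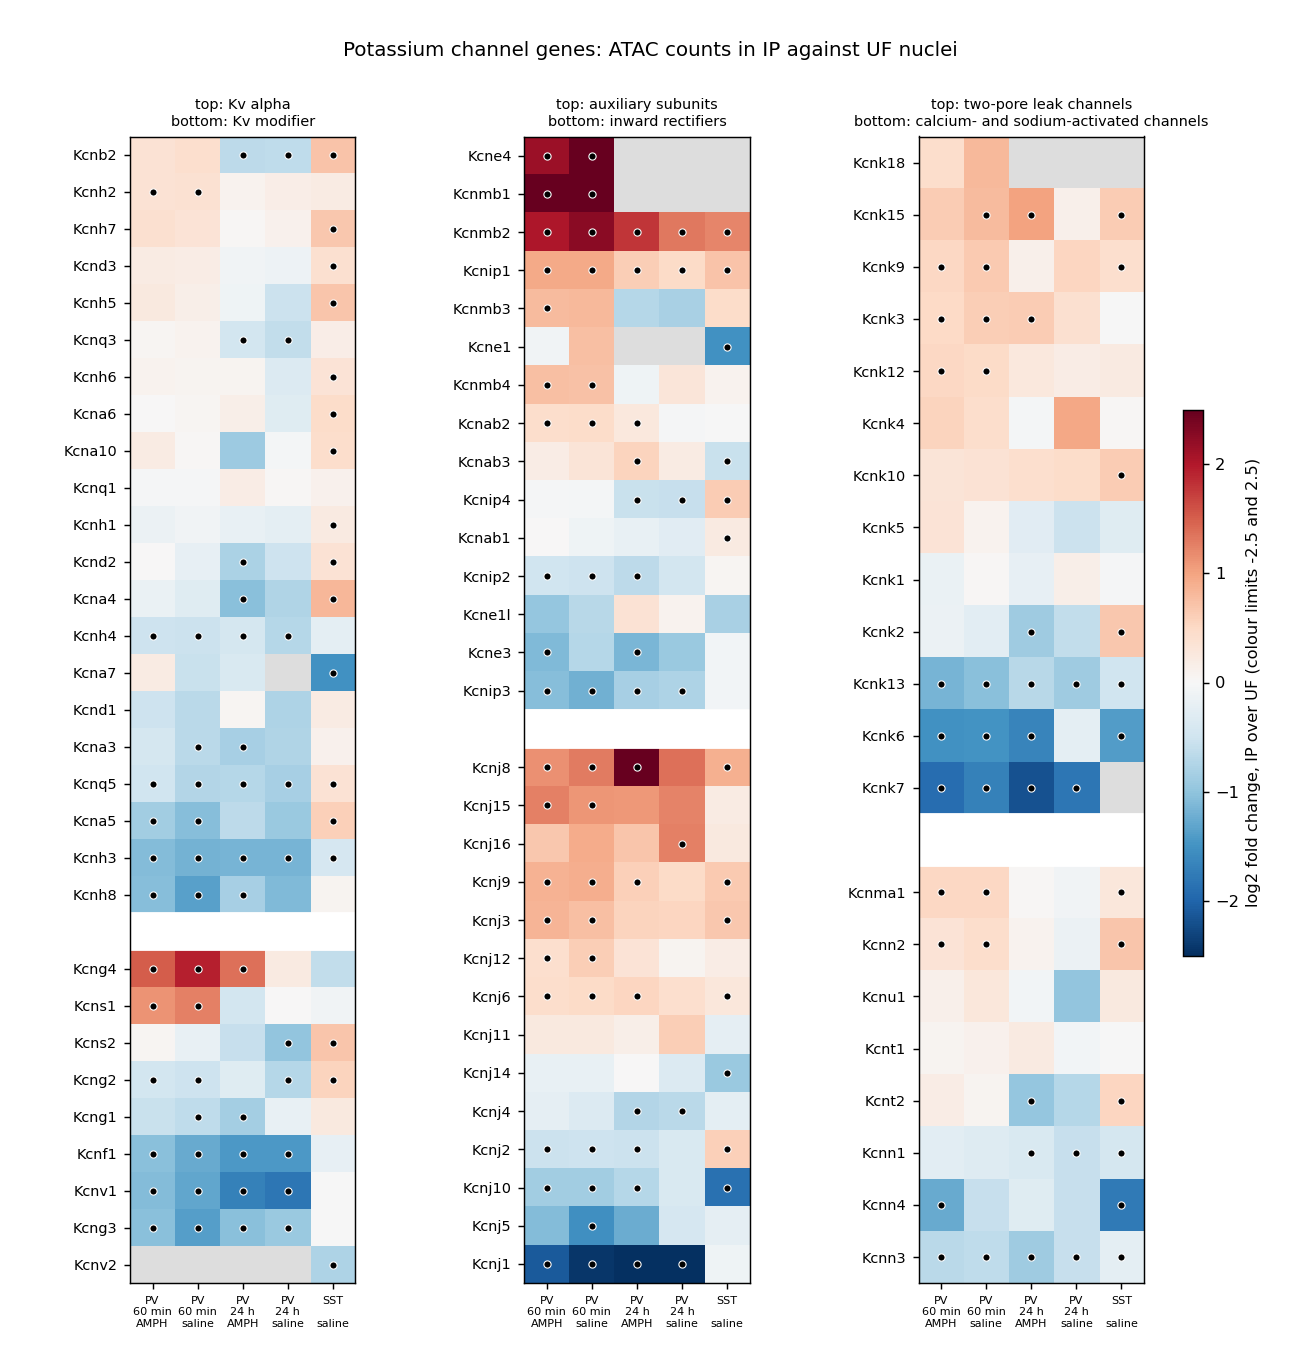
Log2 fold change of IP over UF by gene (rows, grouped by role) in the 5 comparisons (columns: PV at 60 min after AMPH and saline, PV at 24 h after AMPH and saline, SST saline). Red is higher in IP, blue is lower, a dot marks an adjusted p under 0.05 and grey cells were not tested; Kcnmb2 and Kcnip1 are red with a dot in all 5 columns, and Kcnh3, Kcnk13 and Kcnn3 blue with a dot in all 5.

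Among the auxiliary subunits, Kcnmb2, a beta subunit that makes large-conductance calcium-activated channels inactivate, stood out. Its counts were 336, 271, 179 and 348 CPM in PV IP, against 72.3, 50.6, 54.8 and 59.8 CPM in PV UF. The lowest IP library was above the highest UF library. The log2 fold change was 2.26 ± 0.19 (adjusted p = 1e-05 in edgeR), and 37 of its 41 tested regions were higher in IP while 1 was lower. In SST nuclei Kcnmb2 was also higher, at 172, 164 and 184 CPM in IP, against 81.3, 72.6 and 68.8 CPM in UF, a log2 fold change of 1.22 ± 0.09 (adjusted p = 2.1e-08 in edgeR). The difference between the enrichments, 1.04 ± 0.24 more in PV than in SST, passed the test (adjusted p = 0.0047 in edgeR), but did not when only regions within 1 kb of the gene ends were counted (0.82, adjusted p = 0.19).

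Kcnip1, a calcium-binding subunit of A-type channels found in many interneurons, had 625, 481, 351 and 542 CPM in PV IP, against 299, 239, 238 and 265 CPM in PV UF. The groups did not overlap, and the log2 fold change was 0.94 ± 0.16. It had 345, 328 and 355 CPM in SST IP, against 206, 218 and 206 CPM in SST UF, for 0.71 ± 0.08. In PV 32 of its 60 tested regions were higher and 4 lower, among them 3 of the 4 within 1 kb of a start site. With regions within 1 kb of the gene ends alone the fold was 0.61 and did not pass (adjusted p = 0.24). Kcnip3, a related calcium sensor that also acts in the nucleus as a transcriptional repressor, went the other way in PV, with 81.5, 68.9, 93.4 and 70.6 CPM in IP, against 202, 195, 169 and 157 CPM in UF. Every IP library was below every UF library (log2 fold change -1.20 ± 0.13, adjusted p = 3.8e-05 in edgeR), and 14 of 19 regions were lower with none higher. In SST nuclei the gene sum of Kcnip3 was near even, at 124, 135 and 122 CPM in IP, against 131, 139 and 130.2 CPM in UF (-0.07 ± 0.09), although 9 of its 18 tested regions were lower. The PV minus SST difference was -1.12 ± 0.17 and passed.

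Kcnip4, the remaining member of that family with large counts, was even in PV (-0.04 ± 0.15) and higher in SST (0.63 ± 0.08, with 380.1, 397 and 464 CPM in IP, against 267, 271 and 261 CPM in UF). The even sum in PV held opposite changes, since 20 of 88 regions were higher and 25 lower. Kcnip2, known for its part in A-type currents of projection neurons, was lower in PV (-0.52 ± 0.18, adjusted p = 0.048 in edgeR) and near even in SST (0.04 ± 0.13). That PV call ended without any of 6 single libraries, and its fold was 0.07 when regions shared with another gene were left out. Kcnab1, a cytoplasmic beta subunit, had a log2 fold change of -0.10 ± 0.15 in PV and 0.22 ± 0.08 in SST, where the call ended without 4 of 6 single libraries. Kcnmb4, the neuronal beta subunit of the large-conductance channel, was higher in PV (0.73 ± 0.14) and not in SST (0.09 ± 0.11), with a difference of 0.64 that passed. Kcnab3 differed by 0.88 between PV and SST, but its regions are shared with a neighbouring gene, and without them the difference was -0.20.

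The largest fold changes in PV belonged to Kcne4 and Kcnmb1, singled out after their values were seen because of their low counts. Kcne4 averaged 4.46 ± 3.14 CPM in PV IP and 0.692 ± 0.417 CPM in PV UF, and Kcnmb1, known from smooth muscle, averaged 4.14 ± 1.94 CPM in PV IP and 0.662 ± 0.182 CPM in PV UF (SD, n = 4 each). Each rests on 1 region. Kcnmb1 lies inside Kcnip1 (mm10 chr11:33962955-33973641 within chr11:33629339-33993348), and its region is counted for both. Their log2 fold changes were 2.80 ± 0.65 and 2.67 ± 0.48. The Kcne4 groups overlapped, as IP replicate 5 had 0.648 CPM from 4 counts, and those of Kcnmb1 did not. The SST table holds no region of either gene, and at 24 h their counts were under the filter for IP against UF. Summed endothelial and mural markers were higher in PV IP than in PV UF, as given above, and their part in these folds was not tested.

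**Figure D2:**
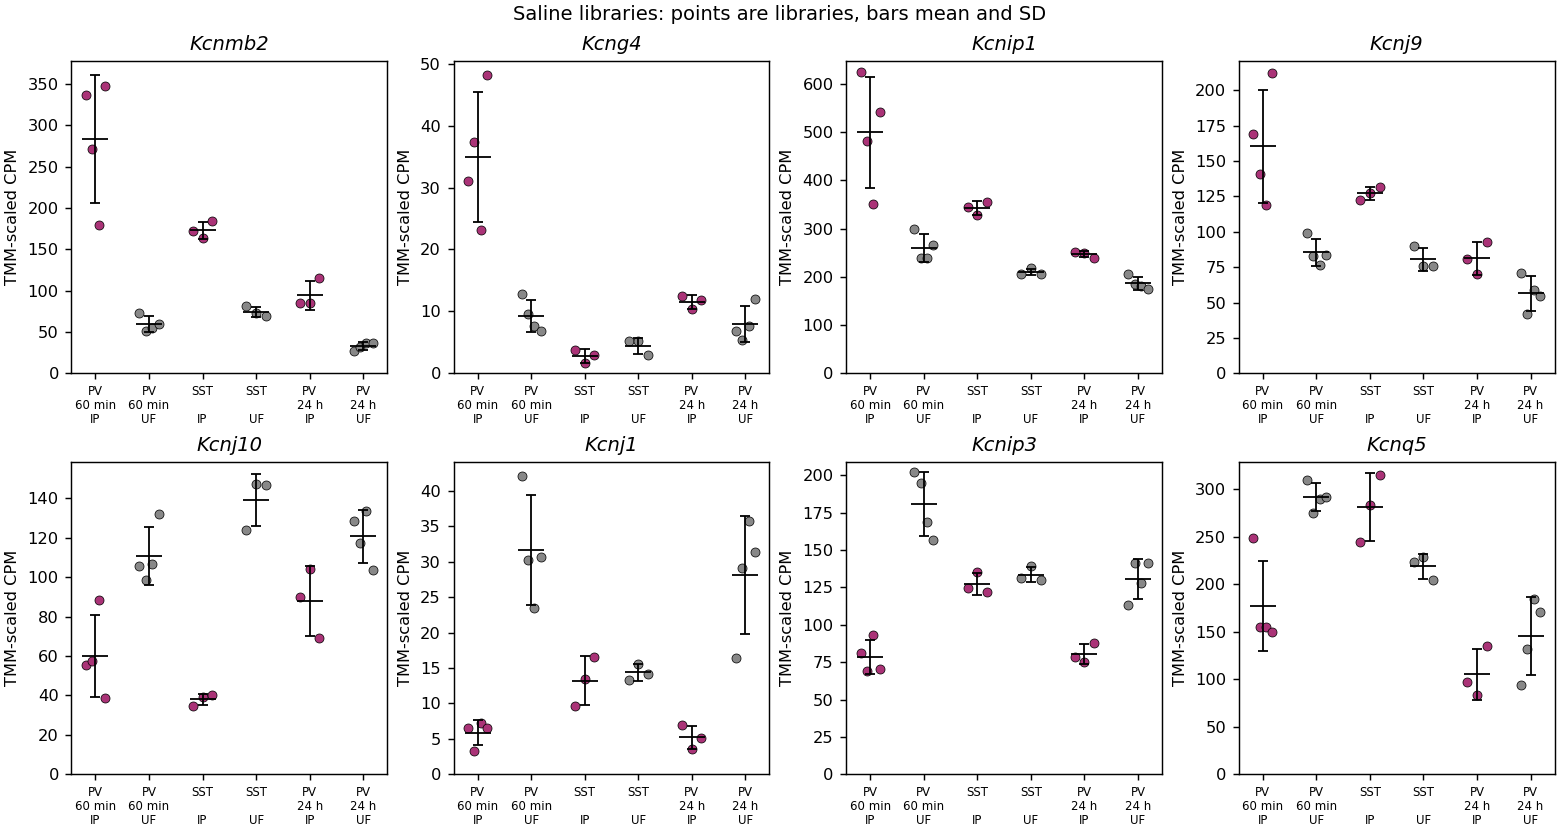
TMM-scaled CPM of 8 genes in each saline library (points), with the mean and SD of each group as bars; IP groups are in purple and UF groups in grey, and scales are comparable only within a table. Kcnmb2 is higher in each IP group, Kcnj1 lies at 3.33 to 7.18 CPM in PV IP and 23.5 to 42.1 CPM in PV UF at 60 min but overlaps in SST, and Kcng4 is higher in PV IP at 60 min while its groups overlap in SST and in PV at 24 h.

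Silent modifier subunits, which form no channel alone but change those they join, showed a clear split in PV. Kcng4 was higher, with 31.0, 37.4, 23.2 and 48.1 CPM in PV IP, against 12.7, 9.62, 7.67 and 6.85 CPM in PV UF. The groups were well apart, and the log2 fold change was 1.94 ± 0.25 (adjusted p = 0.00012 in edgeR). In SST nuclei Kcng4 was low in both fractions, at 3.78, 1.58 and 3.00 CPM in IP, against 5.26, 5.15 and 2.88 CPM in UF, and the difference between classes was 2.58 ± 0.45. Kcns1 was also higher in PV, with 20.2, 29.0, 15.2 and 53.5 CPM in IP, against 14.5, 13.5, 11.2 and 10.3 CPM in UF (1.26 ± 0.32). Its highest IP library was replicate 5. The PV minus SST difference of Kcns1, 1.35 ± 0.46, did not pass without that library (0.89, adjusted p = 0.068), nor without any of 6 others (1.27 to 1.33). Kcns1 and Kcng4 can join the delayed-rectifier pore subunit Kcnb2, which had 0.41 ± 0.16 in PV and passed with the replicate number as a block (0.39, adjusted p = 0.0089).

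Other modifiers were lower in PV. Kcng3 had 22.2, 22.1, 21.9 and 13.0 CPM in PV IP, against 60.0, 55.7, 51.3 and 39.3 CPM in PV UF, and Kcnv1 had 16.4, 22.5, 22.3 and 16.4 CPM in PV IP, against 51.4, 49.7, 51.6 and 39.5 CPM in PV UF. No IP library of either gene reached a UF library. Their log2 fold changes were -1.38 ± 0.19 and -1.30 ± 0.16, and Kcnf1 had -1.25 ± 0.20. In SST nuclei the folds were -0.02 ± 0.11 for Kcng3, -0.01 ± 0.13 for Kcnv1 and -0.20 ± 0.14 for Kcnf1, and all 3 PV minus SST differences passed. With regions within 1 kb of the gene ends alone, Kcng3 (-0.52, adjusted p = 0.16) and Kcnf1 (-0.72, adjusted p = 0.076) did not pass in PV, nor did their PV minus SST differences (-0.47 and -0.77). Kcng2 was lower in PV (-0.51 ± 0.15) and higher in SST (0.55 ± 0.10), and Kcns2 was higher in SST (0.70 ± 0.11). Spiny projection neuron markers moved along in PV (7 of 14 lower, none higher) and not in SST (5 higher, 2 lower), and their part in these differences was not tested.

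Of the 24 voltage-gated pore subunits, 1 was higher and 7 lower in PV IP, where 11.8% of all genes were higher and 13.2% lower. In SST IP 12 of the 24 were higher and 3 lower, where 28.9% of all genes were higher and 29.4% lower. The difference itself passed for 5 of the 24 (20.8%, near the 22% over all genes), all of them more negative in PV. Kcna4, an A-type pore subunit, had 89.5, 129.6 and 144 CPM in SST IP, against 65.5, 68.6 and 69.7 CPM in SST UF, and every IP library was above every UF library (0.83 ± 0.13). In PV it had 48.4, 33.8, 37.8 and 38.4 CPM in IP, against 46.4, 43.8, 54.3 and 49.0 CPM in UF. There the groups overlapped, the fold of -0.30 ± 0.14 did not pass without the replicate block and did with it (-0.31, adjusted p = 0.045), and the PV minus SST difference was -1.13 ± 0.21. Kcna5 had 9.59, 9.01, 11.3 and 9.56 CPM in PV IP, against 17.7, 23.8, 20.9 and 20.3 CPM in PV UF, but 19.1, 20.9 and 18.0 CPM in SST IP, against 12.7, 13.0 and 12.4 CPM in SST UF. It was lower in PV (-1.07 ± 0.19), higher in SST (0.60 ± 0.15) and differed by -1.67 ± 0.24. These values rest on 2 regions of Kcna5 in PV and 1 in SST.

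Kcnq5, a pore subunit of the M current that brakes repetitive firing, was lower in PV, at 248, 155, 155 and 150.0 CPM in IP, against 309, 274, 290.0 and 292 CPM in UF. Replicate 1 was the highest IP library, yet below all UF libraries (-0.72 ± 0.15, adjusted p = 0.0031 in edgeR). In SST it was higher, at 245, 283 and 315 CPM in IP, against 223, 228 and 204 CPM in UF (0.36 ± 0.09), though its regions within 1 kb of the gene ends gave -0.08. The difference between classes was -1.09 ± 0.20. Its regions showed the same turn, with 6 of 59 higher and 27 lower in PV but 14 of 55 higher and 6 lower in SST. Its partner Kcnq3 was near even in PV (0.09 ± 0.12) with 0.17 ± 0.07 in SST, which missed the threshold.

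Several A-type, delayed-rectifier and ether-a-go-go pore subunits were higher in SST IP. Kcnb2 had 301, 339 and 366 CPM in SST IP, against 227, 209 and 181 CPM in SST UF (0.70 ± 0.10), with 18 of 41 regions higher and 2 lower. Kcnh5 and Kcnh7, of the ether-a-go-go family, rose by 0.70 ± 0.10 and 0.68 ± 0.09, and Kcnd2, the main A-type subunit of striatal neurons, by 0.35 ± 0.09, although the Kcnd2 call ended with regions within 1 kb of the gene ends alone (0.26, adjusted p = 0.097). In PV nuclei Kcnh5 had 0.14 ± 0.20, Kcnh7 0.33 ± 0.16 and Kcnd2 -0.21 ± 0.16, of which only Kcnh7 passed with the replicate block (0.31, adjusted p = 0.029). None of these 4 differed between classes at the threshold. Kcnh8 was lower in PV, with 14.1, 5.18, 6.32 and 9.23 CPM in IP, against 25.0, 24.2, 20.3 and 17.1 CPM in UF (-1.36 ± 0.28), but not when the flanks were left out (-0.58, adjusted p = 0.30), where its PV minus SST difference of -1.45 also ended (-0.59, adjusted p = 0.36). Kcnh3 was lower in both classes, by -1.19 ± 0.26 in PV and -0.42 ± 0.17 in SST.

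**Figure D3:**
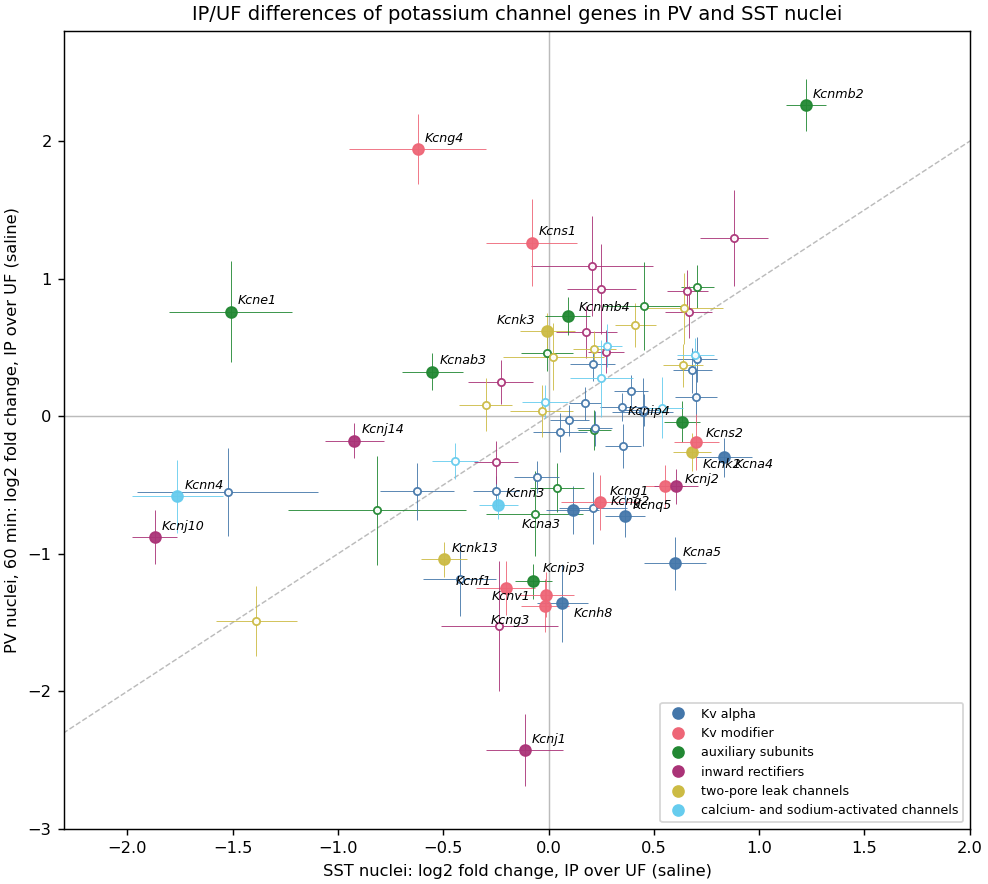
Log2 fold change of IP over UF in PV nuclei at 60 min (y axis) and in SST nuclei (x axis), saline, for each gene tested in both, coloured by role, with SE bars. Filled, named points differ between PV and SST at an adjusted p under 0.05 and the dashed line marks equal values; Kcng4 and Kcns1 lie above it with no call in SST, and Kcnj1, Kcng3, Kcnv1 and Kcnip3 lie far below it near no change in SST.

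Inward rectifiers fell into functional groups. The subunits of the G-protein-gated channel that inhibitory receptors open, Kcnj3, Kcnj6 and Kcnj9, were higher in IP in both classes. Kcnj9 had 169, 141, 119 and 212 CPM in PV IP, against 98.9, 82.5, 76.8 and 83.6 CPM in PV UF (0.91 ± 0.16), and 123, 127 and 132 CPM in SST IP, against 90.1, 75.9 and 75.5 CPM in SST UF (0.66 ± 0.10). Kcnj3 had 92.3, 77.3, 60.6 and 60.3 CPM in PV IP, against 47.1, 42.5, 52.7 and 28.8 CPM in PV UF (0.76 ± 0.19), and 119, 153 and 150.3 CPM in SST IP, against 99.9, 88.2 and 78.3 CPM in SST UF (0.67 ± 0.11). None of the groups overlapped. Kcnj6 rose by 0.47 ± 0.16 in PV and 0.27 ± 0.09 in SST, calls that ended without any of 4 single libraries in PV (0.36 to 0.44) and any of 2 in SST (0.25 in each case). Kcnj5, the remaining subunit, was lower in PV (-1.53 ± 0.48). No PV minus SST difference of these genes passed, the largest being -1.29 ± 0.59 for Kcnj5.

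Strong inward rectifiers, which set the resting potential of spiny projection neurons, were mixed in PV: Kcnj2 was lower, Kcnj12 higher, and Kcnj4 did not pass. Kcnj2 had 35.3, 38.8, 38.0 and 36.1 CPM in PV IP, against 50.5, 54.3, 60.0 and 46.3 CPM in PV UF, with no overlap (-0.51 ± 0.13). In SST it had 92.0, 109 and 114 CPM in IP, against 74.3, 67.2 and 65.4 CPM in UF (0.60 ± 0.10), and the difference between classes was -1.11 ± 0.17. Without the 2 kb flanks, the PV value of Kcnj2 was 0.37 and that difference was -0.80 (adjusted p = 0.11). Kcnj4 had -0.33 ± 0.16 in PV and -0.25 ± 0.11 in SST, and Kcnj12 had 0.61 ± 0.19 in PV and 0.18 ± 0.14 in SST. Kcnj1, best known as the potassium secretion channel of the kidney, had 6.56, 3.33, 7.18 and 6.48 CPM in PV IP, against 42.1, 30.2, 23.5 and 30.7 CPM in PV UF. This was the lowest fold in PV, -2.43 ± 0.26 (adjusted p = 3.9e-05 in edgeR), in a gene with 3 tested regions of which 2 were lower. In SST Kcnj1 had 9.61, 13.4 and 16.6 CPM in IP, against 13.3, 15.6 and 14.2 CPM in UF, and the groups overlapped (-0.11 ± 0.18). The SST values of Kcnj1 rest on 1 region.

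Kcnj10, the glial rectifier that clears extracellular potassium, was lower in IP of both classes and lower still in SST. It had 55.5, 57.4, 88.2 and 38.7 CPM in PV IP, against 106, 98.6, 107 and 132 CPM in PV UF (-0.88 ± 0.19), and 34.7, 39.3 and 40.1 CPM in SST IP, against 124, 147 and 147 CPM in SST UF (-1.87 ± 0.11, adjusted p = 9e-10 in edgeR). IP and UF libraries did not overlap in either class, and in SST 9 of its 10 tested regions were lower. The difference between classes was 1.00 ± 0.26. Oligodendrocyte markers summed to 276 to 370 CPM in PV IP and 536 to 677 CPM in PV UF, and to 349 to 402 CPM in SST IP and 649 to 704 CPM in SST UF. Astrocyte markers summed to 169 to 251 CPM in PV IP and 255 to 316 CPM in PV UF, but to 243 to 321 CPM in SST IP and 245 to 251 CPM in SST UF. The part of these cells in the Kcnj10 values was not tested. Kcnj16, its astrocytic partner, had 0.92 ± 0.33 in PV, which passed with the replicate block (0.81, adjusted p = 0.011), and 0.25 ± 0.16 in SST.

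Kcnj8, the pore of ATP-sensitive channels in pericytes and smooth muscle, had 6.56, 11.8, 10.5 and 5.35 CPM in PV IP, against 1.94, 5.01, 3.14 and 3.55 CPM in PV UF. The groups did not overlap, and the fold was 1.30 ± 0.35 (adjusted p = 0.014 in edgeR). In SST it had 18.6, 19.1 and 21.4 CPM in IP, against 10.7, 12.5 and 9.13 CPM in UF (0.88 ± 0.16). The endothelial and mural sums given above were higher in PV IP and less so in SST IP, and their part was not tested. Kcnj11, the ATP-sensitive pore of neurons, had 0.25 ± 0.16 in PV and -0.23 ± 0.16 in SST and did not pass. Kcnj15 was higher in PV (1.10 ± 0.36), a call that ended without any of 6 single libraries (0.84 to 1.19).

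Among tandem-pore channels, the acid-sensitive Kcnk3 and Kcnk9, Kcnk12, a relative of Kcnk13, and Kcnk15, a silent relative of Kcnk3, were higher in PV. Their log2 fold changes were 0.62 ± 0.13, 0.66 ± 0.16, 0.49 ± 0.13 and 0.78 ± 0.26. Kcnk3 had 77.7, 75.8, 59.1 and 57.4 CPM in PV IP, against 45.1, 43.9, 46.4 and 40.2 CPM in PV UF, with no overlap. In SST, Kcnk9 (0.41 ± 0.10) and Kcnk15 (0.64 ± 0.18) were higher as well, Kcnk3 was not (-0.01 ± 0.13), and Kcnk10 was (0.64 ± 0.09). Kcnk15 held 3 regions in PV and 2 in SST, of which 1 in each class was not shared with another gene. Kcnk2, a mechano- and lipid-sensitive leak channel, had 148, 152 and 154 CPM in SST IP, against 97.6, 96.9 and 88.1 CPM in SST UF (0.68 ± 0.09). In PV it had 131, 86.3, 86.1 and 94.5 CPM in IP, against 126, 114, 127 and 108 CPM in UF, and the groups overlapped (-0.26 ± 0.14; -0.28 with the replicate block, adjusted p = 0.038). The PV minus SST difference of Kcnk2 was -0.94 ± 0.18.

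Kcnk13, a leak channel prominent in microglia, was lower in every IP group, but at 24 h the call ended in 7 of 16 alternative settings after saline (highest adjusted p = 0.27) and in 2 of 17 after AMPH (highest adjusted p = 0.10). It had 40.4, 37.2, 30.5 and 40.2 CPM in PV IP, against 81.8, 73.6, 70.3 and 78.5 CPM in PV UF (-1.04 ± 0.13), and 56.9, 46.6 and 52.9 CPM in SST IP, against 72.2, 79.3 and 69.7 CPM in SST UF (-0.50 ± 0.11). The difference of -0.54 ± 0.17 ended without any of 7 single libraries. Microglia markers were lower in PV IP for 3 of 7 and in SST IP for 9 of 9, and their part was not tested. Kcnk6 was lower by -1.49 ± 0.25 in PV and -1.39 ± 0.19 in SST, at 3.28 to 5.95 CPM in PV IP and 11.9 to 15.3 CPM in PV UF. Kcnk7, at 3.56 to 6.57 CPM in PV IP and 13.7 to 17.8 CPM in PV UF (-1.68 ± 0.25), shares regions with another gene, and without them the fold was -1.18 (adjusted p = 0.074).

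Of the calcium- and sodium-activated channels, Kcnma1, the pore of the large-conductance channel that Kcnmb2 joins, had 858, 662, 516 and 877 CPM in PV IP, against 584, 506, 494 and 456 CPM in PV UF. IP replicate 4 lay within the UF range, and the fold was 0.51 ± 0.16 (adjusted p = 0.028 in edgeR), a call that ended without any of 5 single libraries (0.41 to 0.51). In SST it had 357, 339.7 and 359 CPM in IP, against 297, 293 and 282 CPM in UF (0.28 ± 0.07). The gene had 121 tested regions in PV, 52 of them higher and 10 lower, and with regions within 1 kb of its ends alone the fold was 0.10 in PV and 0.15 in SST, and neither passed. Kcnn2, a small-conductance channel of the afterhyperpolarisation, was higher in PV (0.44 ± 0.12) and SST (0.70 ± 0.09), though in PV not with regions within 1 kb of the gene ends alone (0.27, adjusted p = 0.36).

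Kcnn3, the small-conductance channel of dopaminergic and other pacemaking neurons, was lower throughout. It had 177, 156, 162 and 177 CPM in PV IP, against 282, 264, 250.3 and 251 CPM in PV UF (-0.64 ± 0.10), and 118, 106 and 100.3 CPM in SST IP, against 123, 127 and 133 CPM in SST UF (-0.24 ± 0.09). The groups did not overlap, but the SST call ended without any of 5 single libraries (-0.27 to -0.19), and the PV minus SST difference of -0.40 ± 0.14 without any of 11 (-0.43 to -0.33). Kcnn4, an intermediate-conductance channel known from microglia, had 3.47, 3.55 and 4.71 CPM in SST IP, against 11.4, 16.1 and 13.1 CPM in SST UF (-1.76 ± 0.22). Microglia markers summed to 68.4 to 82.3 CPM in SST IP and 136 to 146 CPM in SST UF, and their part in the Kcnn4 value was not tested. The sodium-activated Kcnt1 was even in both classes (0.10 ± 0.12 in PV and -0.02 ± 0.11 in SST), and Kcnt2 had 0.06 ± 0.22 in PV and 0.54 ± 0.10 in SST.

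In SST nuclei as a whole, 30 of 79 genes were higher and 13 lower in IP (54.4%), where 58.3% of all 16883 genes passed, so the share was near the background. The split was less even than over all genes, of which 28.9% were higher and 29.4% lower, and the median log2 fold change was 0.17, against -0.01 over all genes. IP and UF libraries did not overlap for 34 higher and 15 lower genes, together 49 of 79, where 63.4% of all genes were so separated. Set side by side with PV, 10 genes were higher in both classes, 5 lower in both and 4 opposite, among 78 tested in both. Over all 16502 genes tested in both, 1099 were higher in both, 1052 lower in both and 436 opposite. The difference itself passed for 28 of 78 genes (35.9%, where 22% of all genes passed), with 10 more positive in PV and 18 more negative. Modifiers supplied 2 of those in the positive direction and 6 in the negative, and voltage-gated pore subunits 0 and 5. Each class was measured in a table of its own, so an effect of the Cre line and one of the table cannot be told apart. The excluded fast-spiking genes gave 4 of 7 higher and 0 lower in PV (Kcns3 2.31, Kcnc2 1.24, Kcna2 0.53 and Kcna1 0.43) and 4 higher and 1 lower in SST. Of 14 channel partners outside the Kcn names tested in PV, such as the Dpp, Hcn and Lrrc genes, 5 were higher and 1 lower. Over all genes, 11.8% were higher and 13.2% lower in PV, and 28.9% were higher and 29.4% lower in SST.

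Single regions showed where in the genes the differences lay. In PV at 60 min, 365 of 1313 tested regions of these genes were higher and 302 lower (50.8%, where 44.8% of all regions passed). In SST the counts were 286 and 168 of 1101 (41.2%, where 46.8% of all passed). Of the 120 regions within 1 kb of a start site in PV, 22 were higher and 25 lower, and of the 125 in SST, 28 were higher and 15 lower, so most called regions lay farther than 1 kb from a start site. Some genes held changes of both signs: in PV 41 of 81 genes had regions called in each direction, 10 in the higher direction alone, 20 in the lower alone and 10 in neither. The matching shares over all genes were not computed. The median channel gene had 9 regions, against 4 over all genes, so these counts are not read as particular to channel genes.

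The regions named here are, for each class and direction, the 3 with the largest changes, at most 1 per gene, among called regions that belong to 1 gene, have a mean log2 CPM of at least 2 and have non-overlapping libraries. All lay in gene bodies. Regions with fewer counts, such as 1 in Kcnk10 (3.92) and 1 in Kcnn4 (-4.29) in SST, had larger changes than some of them. A Kcnmb2 region at chr3:32071929-32072128, deep in the gene, had 12.2, 12.4, 8.99 and 28.0 CPM in PV IP, against 1.15, 0.516, 0.551 and 0.441 CPM in PV UF (4.55 ± 0.43). A Kcns1 region at chr2:164169901-164170100 had 4.21, 7.43, 2.42 and 19.8 CPM in PV IP, against 0, 0.322, 0.315 and 0.662 CPM in PV UF (4.51 ± 0.67), and a Kcnip1 region at chr11:33822535-33822734 had 8.02, 9.70, 2.19 and 39.1 CPM in PV IP, against 1.48, 0.258, 0.787 and 1.21 CPM in PV UF (4.04 ± 0.85). In all 3, replicate 5 was the highest IP library. Regions lower in PV IP lay in Kcnip4 (chr5:48425475-48425674, -3.17 ± 0.30), Kcnab1 (chr3:65240941-65241140, -2.97 ± 0.35) and Kcnma1 (chr14:23520233-23520432, -2.89 ± 0.34). In SST a Kcnip4 region at chr5:48690157-48690356 had 12.2, 13.2 and 13.7 CPM in IP, against 1.26, 0.42 and 1.52 CPM in UF (3.55 ± 0.27). Kcnb2 (chr1:15607657-15607856, 3.32 ± 0.30) and Kcnmb2 (chr3:32067429-32067628, 2.84 ± 0.26) were next in SST under the same limits. The Kcnj10 region at chr1:172350045-172350244, downstream of its start site, had 2.04, 1.81 and 2.61 CPM in SST IP, against 27.5, 33.1 and 32.8 CPM in SST UF (-3.82 ± 0.21). Regions in Kcnq1 (chr7:143329463-143329662, -4.51 ± 0.40) and Kcnk5 (chr14:20144255-20144454, -3.32 ± 0.29) were also lower in SST IP, in genes whose sums did not pass.

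**Figure D4:**
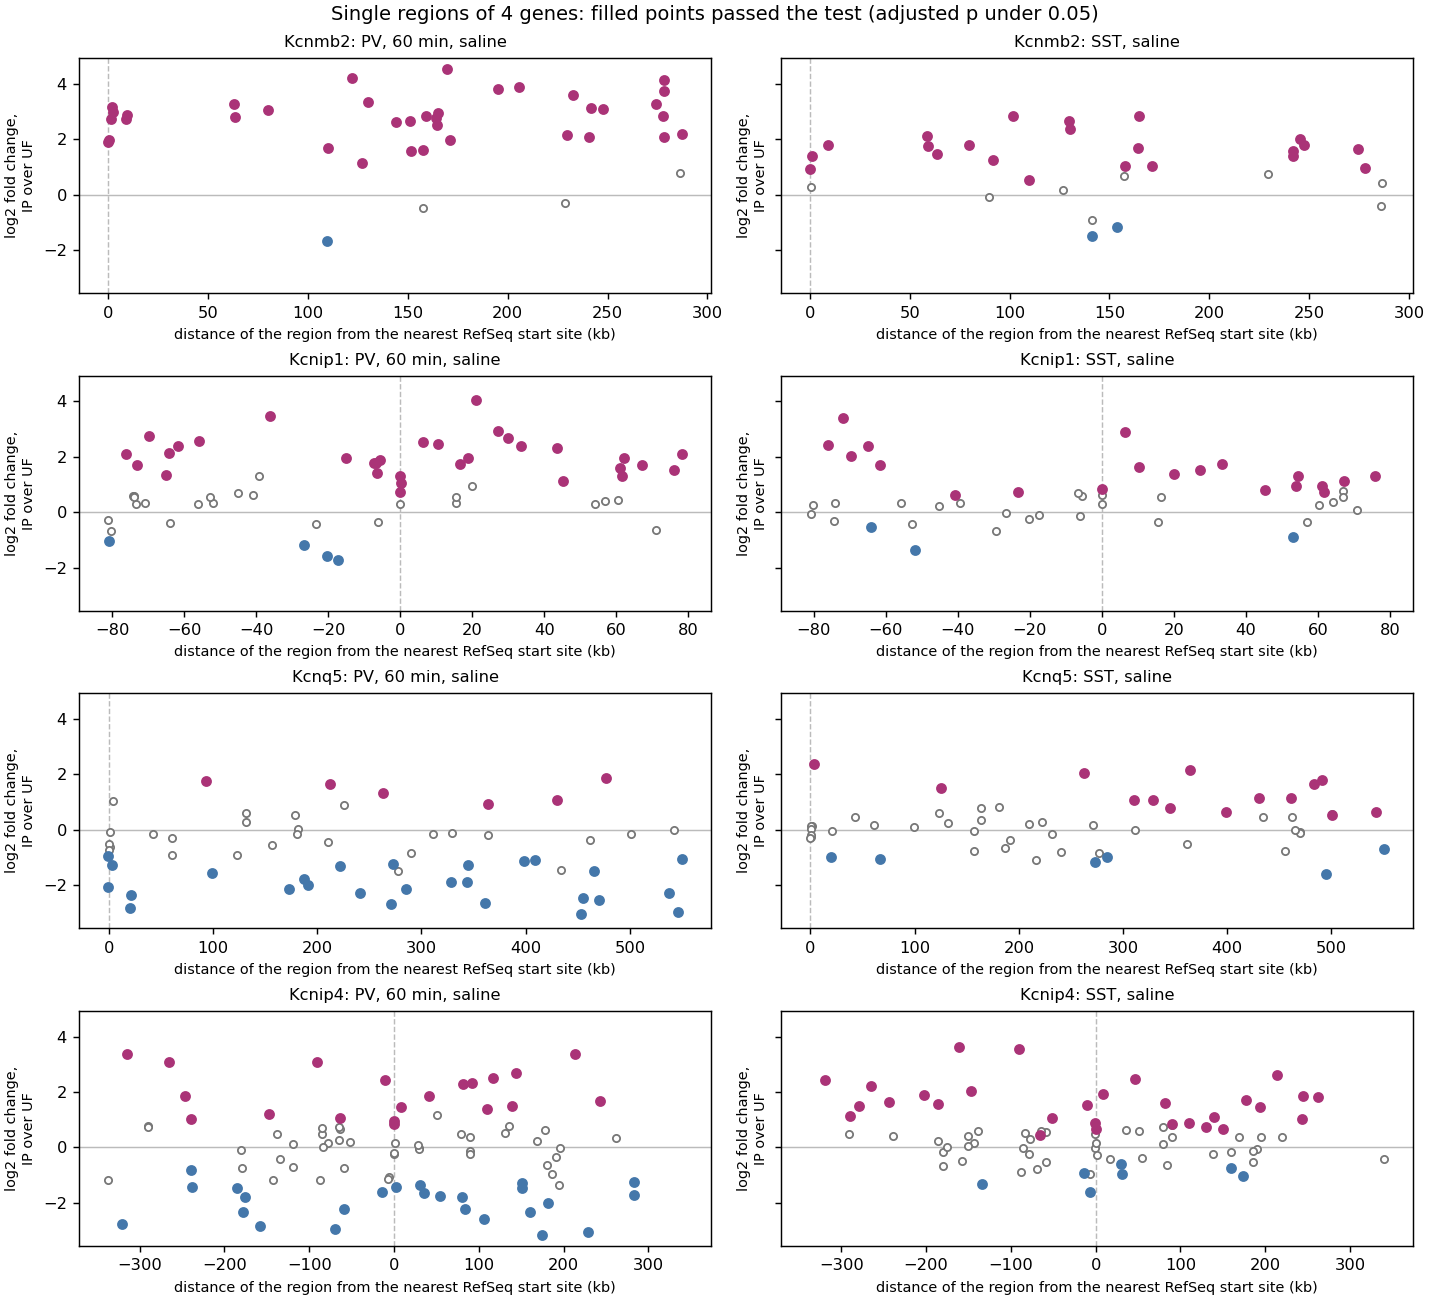
Log2 fold change of IP over UF of each tested region in Kcnmb2, Kcnip1, Kcnq5 and Kcnip4 by distance from the nearest RefSeq start site in kb, in PV at 60 min (left) and SST (right), saline. Filled points have an adjusted p under 0.05 (purple higher, blue lower); Kcnmb2 is higher at 37 of 41 regions in PV, Kcnq5 lower at 27 of 59 in PV and higher at 14 of 55 in SST, and Kcnip4 mixed in PV.

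At 24 h after the last of 6 injections, the saline PV nuclei gave 3 higher and 19 lower of 77 genes (28.6%, where 14.9% of all genes passed, 7.13% higher and 7.75% lower), and the median log2 fold change was -0.33, against 0.00 over all genes. The higher genes were Kcnmb2 (1.33 ± 0.23, with 84.5, 84.5 and 115 CPM in IP, against 27.3, 32.2, 36.4 and 36.6 CPM in UF), Kcnip1 (0.47 ± 0.14) and Kcnj16 (1.26 ± 0.43). Kcnj16 was no longer called without any of 4 single libraries, under DESeq2, with the replicate block or without the 2 shallowest saline libraries (adjusted p = 0.054). Among the lower ones were Kcnj1 (-2.65 ± 0.39), Kcnv1 (-1.80 ± 0.34), Kcnf1 (-1.44 ± 0.30), Kcng3 (-0.93 ± 0.25) and Kcnip3 (-0.77 ± 0.17). All saline IP libraries of this table are labelled Iso2, and the fit holds Iso1 and Iso2 apart, so these folds rest on the UF libraries Iso2-1 and Iso2-2. Without IP library Iso2-1 the count was 14 and without Iso2-2 it was 11. Kcng4, at 12.5, 10.3 and 11.8 CPM in IP, against 6.82, 5.36, 7.66 and 11.98 CPM in UF, overlapped at 24 h (0.22 ± 0.47). In the AMPH libraries of this table, 10 genes were higher and 29 lower of 78 (50%, where 24.4% of all genes passed), Kcng4 among the higher (1.38 ± 0.43, not called without IP library Iso2-1 or UF library Iso2-1). The Iso labels were uneven here too. With Iso held apart, IP library Iso1-1 was set against UF libraries Iso1-1, Iso1-2 and Iso1-3. IP libraries Iso2-1, Iso2-2 and Iso2-3 were set against UF library Iso2-1 alone.

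Kcnj8 had 14.7, 8.85, 9.06 and 4.68 CPM in AMPH IP, against 1.39, 1.72, 1.39 and 1.16 CPM in AMPH UF at 24 h, a fold of 3.03 ± 0.50, while the saline libraries of that table gave 1.38 ± 0.74. Both Kcnj8 folds rest on 1 region, and the interaction of AMPH with fraction passed for no channel gene at 24 h. Endothelial and mural markers summed to 314 to 492 CPM in AMPH IP and 86.7 to 123 CPM in AMPH UF, and to 379 to 475 CPM in saline IP and 83.3 to 124 CPM in saline UF, and their part was not tested. Kcnq3, Kcnip4, Kcnb2 and Kcnj4 did not pass in saline PV at 60 min and were lower at 24 h in both treatments, with saline folds of -0.61 ± 0.14, -0.57 ± 0.16, -0.64 ± 0.18 and -0.67 ± 0.20. The saline call of Kcnb2 at 24 h ended in 6 of 17 alternative settings (-0.35 to -0.60, highest adjusted p = 0.57). That of Kcnj4 ended without IP library Iso2-1 or Iso2-2 or UF library Iso2-1 (-0.61, -0.61 and -0.32), and its fold turned to 0.54 with regions within 1 kb of the gene ends alone. The Kcnip4 call ended without IP library Iso2-2 (-0.44). After AMPH at 24 h, Kcnb2 (-0.57) and Kcnj4 (-0.47) did not pass with regions within 1 kb of the gene ends alone, nor Kcnq3 without IP library Iso1-1 (-0.28). These times come from different tables and were not tested against each other. In all 4 PV comparisons of IP with UF, the genes called lower each time included Kcnf1, Kcng3, Kcnh3, Kcnh4, Kcnip3, Kcnj1, Kcnk7, Kcnk13, Kcnn3, Kcnq5 and Kcnv1, and those called higher were Kcnip1 and Kcnmb2. Besides Kcnk13, saline calls at 24 h ended for Kcnk7 in 5 of 17 alternative settings (highest adjusted p = 0.72), for Kcng3 in 3 (0.53) and for Kcnq5, Kcnn3 and Kcnmb2 in 1 each (0.37, 0.051 and 0.14), and that of Kcnip1 ended in 1 and its direction turned in another. After AMPH at 24 h they ended for Kcnk7 in 3 of 18 and for Kcnq5 in 1, and the direction of Kcnip1 turned in 1. At 60 min after AMPH, the Kcnf1, Kcng3 and Kcnip1 calls ended with regions within 1 kb of the gene ends alone, and that of Kcnq5 without UF replicate 3.

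No potassium channel gene passed the test of AMPH against saline. At 60 min after the injection, 0 of 82 genes passed in IP and 0 of 81 in UF, and 24 h after the last of 6 injections 0 of 79 in IP and 0 of 75 in UF. Over all genes tested the share was 0% in each comparison, by edgeR's quasi-likelihood test and by DESeq2 alike. At an unadjusted p under 0.05 there were 2, 5, 7 and 2 genes in these comparisons. Over all genes there were 257 of 16569 in IP at 60 min, 606 of 16892 in UF at 60 min and 608 of 16243 in IP at 24 h. The count over all genes in UF at 24 h is not given here. The folds of AMPH over saline ran between -0.76 and 0.55 in IP at 60 min, -0.65 and 0.91 in UF at 60 min, -0.61 and 0.63 in IP at 24 h, and -1.10 and 0.75 in UF at 24 h. Their median SE was 0.20, 0.13, 0.18 and 0.20. In data simulated for IP at 60 min, 53.5% of the 99 genes changed 2-fold and 94.8% of the 96 genes changed 4-fold were recovered. A change of 2-fold or less could therefore go uncalled at this depth. The other AMPH comparisons were not simulated, nor were data with fewer changed genes. The interaction of AMPH with fraction gave 0 calls at either time, with 0 of 83 genes at 60 min and 4 of 80 at 24 h under an unadjusted p of 0.05. The matching unadjusted counts over all genes are not given here, so these are not read as particular to channel genes.

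The genes with the lowest p-values are given as values, and none passed after adjustment. In IP at 24 h, Kcnj10 had 63.5, 62.3, 79.8 and 73.1 CPM after AMPH, against 90.1, 104 and 69.2 CPM after saline (-0.37 ± 0.15), and the groups overlapped. Astrocyte markers summed to 151 to 187 CPM in those AMPH libraries and 194 to 241 CPM in those saline libraries, and their part was not tested. Kcnip1 had 256, 299.9, 275 and 296 CPM after AMPH, against 251, 250.2 and 239.7 CPM after saline (0.22 ± 0.10), with every AMPH library above every saline library. Kcna6 had 0.37 ± 0.15. All saline IP libraries at 24 h are labelled Iso2, while the AMPH IP libraries include Iso1-1. With the Iso term, the IP folds at 24 h therefore rest on the Iso2 libraries. In IP at 60 min, Kcnq5 had 267, 180.1, 309 and 195 CPM after AMPH, against 248, 155, 155 and 150.0 CPM after saline (0.43 ± 0.20), Kcnd2 had 0.39 ± 0.21, and Kcnn4, with 5 to 82 counts per library, had -0.76 ± 0.34. In UF at 60 min, Kcnq5 had 334, 295, 372 and 331 CPM after AMPH, against 309, 274, 290.0 and 292 CPM after saline (0.20 ± 0.08), and Kcnj10 had -0.26 ± 0.11. Kcna7, at 2.20, 2.68, 2.75 and 2.86 CPM after AMPH and 4.32, 4.38, 3.79 and 3.93 CPM after saline, had -0.65 ± 0.26. In UF at 24 h, Kcnk4 had 0.75 ± 0.36, Kcne1l -1.10 ± 0.54 and Kcnk2 0.31 ± 0.16. Genes whose AMPH and saline libraries did not overlap numbered 7 of 82 in IP at 24 h, 1 of 83 in IP at 60 min, 1 of 83 in UF at 60 min and 0 of 82 in UF at 24 h, where the shares over all genes were 4.82%, 1.33%, 1.98% and 2.35%. Library values at 24 h were not adjusted for Iso in these counts.

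IP and UF of the AMPH mice at 60 min gave the pattern of the saline mice, from other libraries. There, too, 21 genes were higher and 22 lower of 82 (52.4%, where 28.2% of all genes passed). Both treatments called 20 genes higher and 19 lower, none in opposite directions, and 76 of 82 had the same sign. Over all 16582 genes tested in both, 1547 were called higher and 1861 lower by both, 0 in opposite directions, and 14402 had the same sign. Such agreement was thus not particular to channel genes. Kcnmb2 had 292, 177, 344 and 326 CPM in AMPH IP, against 66.7, 55.9, 81.9 and 69.1 CPM in AMPH UF (2.03 ± 0.17), and Kcng4 had 32.5, 18.1, 33.9 and 38.9 CPM in AMPH IP, against 10.3, 8.49, 11.8 and 10.9 CPM in AMPH UF (1.51 ± 0.24). Kcnip3 had 86.5, 87.3, 77.9 and 103 CPM in AMPH IP, against 178, 159, 215 and 165 CPM in AMPH UF (-1.06 ± 0.12), and Kcnj1 had 15.2, 3.47, 7.87 and 9.27 CPM in AMPH IP, against 35.7, 24.4, 47.5 and 28.9 CPM in AMPH UF (-2.10 ± 0.33). All 4 genes kept their libraries apart in the AMPH mice. Kcns1 (1.11 ± 0.32) passed as well, but IP replicate 2 lay within the UF range, and the call ended without IP replicate 1 or 4 (0.95 and 0.78).

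**Figure D5:**
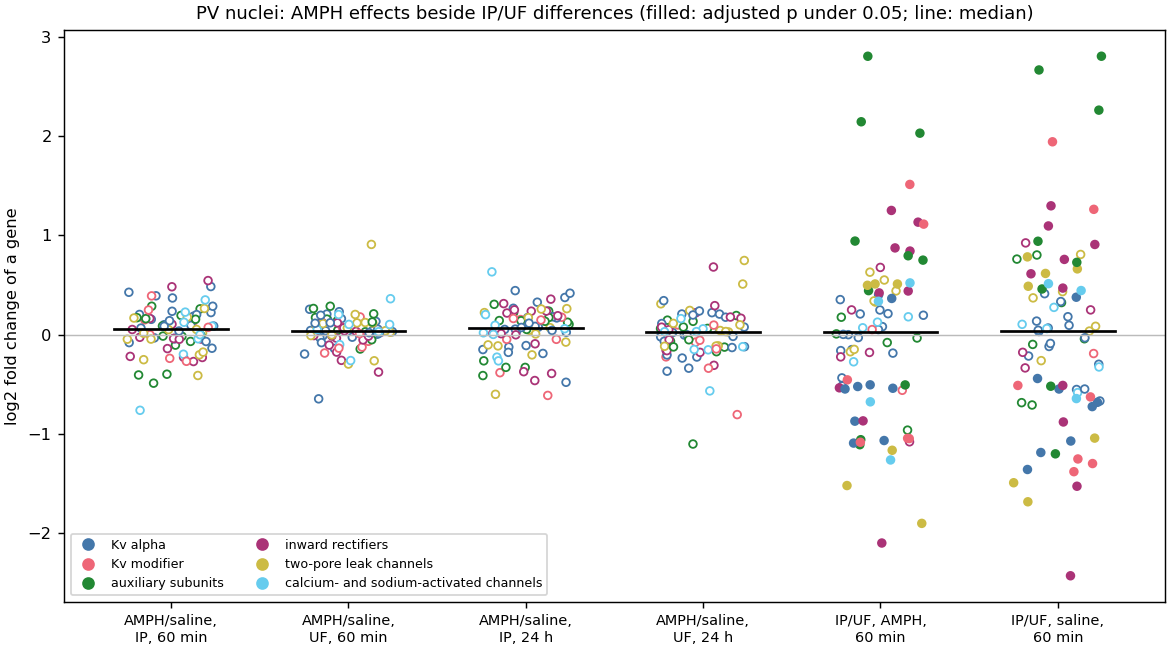
Log2 fold changes of each gene (points, coloured by role; horizontal jitter only separates points) for AMPH over saline in the 4 PV groups and, at the right, for IP over UF at 60 min after AMPH and saline; bars are medians and filled points have an adjusted p under 0.05. No point is filled in the AMPH over saline groups, whose values lie between -1.10 and 0.91, while IP over UF spans -2.43 to 2.80 in saline.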

How the data were processed

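ATAC-seq values were the raw counts of reads per 200 bp region in 3 tables that the authors deposited, with 205848 regions and 16 libraries (PV, 60 min), 178637 regions and 6 libraries (SST) and 171130 regions and 15 libraries (PV, 24 h) on mm10. Per the submitters' processing notes, the tools included FastQC 0.11.2, cutadapt 1.8.3, Bowtie2 2.3.4.3, MACS2 2.1.2, bedtools 2.25.0, R 3.4.4, DESeq2 1.18.1 and deepTools. How duplicate or mitochondrial reads and the transposase offset were treated is not given in the sources used here. No sample column was left unused.

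Regions were assigned to 21887 RefSeq protein-coding genes with 2 kb flanks (GenomicRanges 1.54.1), a region overlapping several genes counting for each, and raw counts were summed per gene. TMM scaling, the default edgeR filter (count of 10, total of 15) and edgeR 4.0.16 quasi-likelihood F tests with robust fits were used in R 4.3.3, with Benjamini-Hochberg adjustment over all genes and a threshold of 0.05. Alternatives used DESeq2 1.42.0. Each comparison was fitted on its own groups, with the Iso label as a term at 24 h. PV minus SST is the difference of the IP over UF effects, fitted on gene counts joined by symbol. Single regions were tested the same way. Samples were grouped by their titles. Libraries of a group were all distinct. Folds are on the log2 scale with their SE.

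Same-numbered IP and UF libraries deviated together at 60 min, with correlations of 0.245 to 0.697 after saline and 0.10 to 0.58 after AMPH, so the numbers may mark pairs there. In SST (-0.07 to 0.07) and at 24 h same-numbered libraries did not deviate together. The main folds, SE, p-values and counts of calls come from fits without a pairing term, also at 60 min. The fit with the replicate number as a block is given for some of the genes whose call it changed, and its counts of calls are given below.

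The members and all gene lists were chosen with earlier results of these data known. The genes named were the 8 highest and 8 lowest called with non-overlapping groups and a log2 CPM of at least 2, the 5 at each end of PV minus SST, the 3 lowest p for AMPH and a list fixed by name. Others (among them Kcnmb1, Kcnmb4, Kcne4, Kcng2, Kcnh3, Kcnj5, Kcnj11, Kcnj12, Kcnk3, Kcnk9, Kcnk10, Kcnk12, Kcnk15 and Kcnq1) were chosen after their values were seen. On data simulated for PV IP against UF at 60 min (16896 genes), 83% of genes changed 2-fold were recovered, and for SST (16849 genes) 97%. A few members count in the totals but are not reported by name here. Promoter sequences are those of RefSeq, GRCm38.p6.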

Additional observations from a re-analysis of the deposited data

Results flagged for a closer look

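Among 126 groups of 4 libraries looked at for 18 of the genes, 6 held 1 library set apart from the others (its gap to the nearest over the range of the group exceeded Dixon's 95% critical value, which chance gives in about 1 in 20 groups). Kcnj9 had 105.8 CPM in PV IP replicate 2 at 60 min after AMPH, where the others had 175 to 180 CPM. Kcng3 had 12.96 CPM in saline PV IP replicate 5 at 60 min, where the others had 21.9 to 22.2 CPM. Kcnv1 had 39.5 CPM in saline PV UF replicate 5 at 60 min, where the others had 49.7 to 51.6 CPM. Kcnq5 had 248 CPM in saline PV IP replicate 1 at 60 min, where the others had 150.0 to 155 CPM. Kcna4 had 51.9 CPM in saline PV UF Iso1-1 at 24 h, where the others had 38.7 to 40.9 CPM, and 37.3 CPM in PV IP replicate 1 at 60 min after AMPH, where the others had 47.3 to 49.2 CPM.

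IP over UF differed between PV (60 min, saline) and SST by a test of the difference for 23 of the named genes. The log2 fold change was larger in PV for Kcng4 (2.58), Kcne1 (2.27), Kcns1 (1.35), Kcnn4 (1.19), Kcnmb2 (1.04), Kcnj10 (1.00), Kcnab3 (0.88) and Kcnj14 (0.75). Every region of Kcnj14 is shared with another gene, so its counts cannot be assigned to Kcnj14 alone. The Kcnn4 difference did not pass with regions within 1 kb of the gene ends alone (0.35, adjusted p = 0.71), nor without any of 3 single libraries (1.01 to 1.13). With those regions the Kcne1 difference was 0.86 (adjusted p = 0.39), and the Kcnj14 difference did not pass without SST IP replicate 2 or 3 (0.62 and 0.67). Kcne1, a small membrane subunit of voltage-gated channels, had 8.07, 5.92, 5.08 and 16.0 CPM in PV IP, against 4.53, 6.88, 4.71 and 4.19 CPM in PV UF, where the groups overlapped, and 1.73, 1.78 and 3.00 CPM in SST IP, against 5.35, 5.77 and 7.84 CPM in SST UF, where they did not. The difference was negative, lower in PV, for Kcnn3 (-0.40), Kcnk13 (-0.54), Kcnip4 (-0.67, not passing without SST IP or UF replicate 3), Kcns2 (-0.89), Kcnk2 (-0.94), Kcnf1 (-1.05), Kcnq5 (-1.09), Kcnj2 (-1.11), Kcnip3 (-1.12), Kcna4 (-1.13), Kcnv1 (-1.28), Kcng3 (-1.36), Kcnh8 (-1.45), Kcna5 (-1.67) and Kcnj1 (-2.31). In SST, Kcna5 and Kcnj1 each held 1 region, against 2 and 3 in PV at 60 min. Each class has its own table, so Cre line and table cannot be separated here.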

How the results depend on the processing

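Of the counts of calls, 240 of 249 recomputed values lay within 1.5 times their main count. With regions within 1 kb of the gene ends alone, fewer genes passed: 28 (PV, saline, 60 min), 26 (PV, AMPH, 60 min), 12 (PV, saline, 24 h), 20 (PV, AMPH, 24 h) and 18 (PV minus SST, with 22.2% of them positive, against 35.7% in full). Without 1 library in turn, the counts ran between 32 and 47 (PV, saline, 60 min), 36 and 49 (PV, AMPH, 60 min), 37 and 50 (SST), 11 and 24 (PV, saline, 24 h), 32 and 41 (PV, AMPH, 24 h), and 21 and 33 (PV minus SST). Regions called at 24 h ran between 43 and 110, with 61 without IP Iso2-1 and 43 without IP Iso2-2, at 60 min between 599 and 722 and in SST between 366 and 461. All AMPH counts were 0 in every setting. With the replicate block, PV at 60 min gave 55 calls after saline and 50 after AMPH, SST gave 43, PV at 24 h gave 16 after saline and 32 after AMPH, and PV minus SST gave 36. At 60 min the block ended no call. Besides the genes given with it above, it added Kcnab3 (0.32) and Kcnn4 (-0.60) after saline, among others, and Kcnb2 (0.34), Kcnh7 (0.37) and Kcnj16 (0.63) after AMPH. Leaving out the 2 shallowest saline libraries, chosen after seeing the data, gave 17 calls at 24 h after saline.

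Of 4592 values recomputed for single genes, 194 lost their call and 126 had the opposite sign. In 109 of those the gene passed in neither fit, and in 17 it passed in at least one of them, as follows. Without regions shared with another gene, Kcnab3 turned to -0.77 (PV, saline, 60 min), -0.68 (PV, AMPH, 60 min), -1.23 (PV, saline, 24 h), -0.49 (PV, AMPH, 24 h) and -0.20 (PV minus SST), and Kcnip2 to 0.075 (saline, 60 min), 0.32 (AMPH, 60 min) and 0.037 (AMPH, 24 h). Without flanks, Kcnj2 turned to 0.37 (saline, 60 min), 0.61 (AMPH, 60 min) and 0.75 (AMPH, 24 h). With regions within 1 kb of the gene ends alone, Kcnip1 turned to -0.62 (saline, 24 h) and -0.50 (AMPH, 24 h), Kcne1 to -1.62 (PV, saline, 60 min), Kcnj4 to 0.54 (saline, 24 h), and in SST Kcnip3 to 0.33 and Kcnq5 to -0.075. These settings count fewer regions per gene, and the cause was not tested otherwise.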
